A study of Mus musculus with 12 samples.

Results

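The genes described here encode the subunits of integrins, the receptors that hold cells to matrix and to other cells, and the chains of laminins, the trimeric proteins of basement membranes. They were taken by symbol, as every row of the table whose Ensembl identifier carries a symbol of the form Itga, Itgb or Lama, Lamb and Lamc followed by its subunit number or letter. This gave 36 genes of 30399 in the table: 17 integrin alpha subunits, 8 integrin beta subunits and 11 laminin chains. Gene names came from the GENCODE M21 annotation, which gave a symbol to 29982 identifiers and none to the remaining 417. In that annotation 37 identifiers match the rule, and 1 of them was not analysed here.

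The series holds poly-A selected RNA sequencing of mouse tissue from work on nonviral CRISPR/Cas9 mutagenesis for making lung cancer models. It has 5 samples labelled normal lung and 7 labelled tumor, numbered here in the order of their accessions. The labels give no strain, age, sex, genotype, edited gene or treatment for any sample, and they do not say whether the normal lungs came from edited animals. Titles place tumors 1 and 7 at the trachea and tumors 3 to 6 in the lung, and name no site for tumor 2. Tumors 3 and 4 share the number 159 in their titles and tumors 5, 6 and 7 share the number 201. The labels do not say what these numbers stand for or that the samples came from separate animals, so p-values measure the spread between these samples, part of which may be technical.

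An integrin is a pair of 1 alpha and 1 beta subunit, and the pair decides the ligand. The beta-1 subunit joins many alpha subunits to form receptors for collagen, laminin and fibronectin. The alpha-v pairs bind proteins with the RGD peptide and can activate latent TGF-beta, the beta-2 and beta-7 pairs belong to leukocytes, and the alpha-IIb/beta-3 pair is the platelet receptor for fibrinogen. A laminin is a trimer of an alpha, a beta and a gamma chain. In lung, laminin-332, which holds the products of Lama3 and Lamb3, is made by epithelium and anchors it to the basement membrane, laminins with the alpha-4 chain are typical of vessels, and laminins with the alpha-5 chain are widespread in epithelial and endothelial basement membranes.

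Values are normalized read counts as deposited by the authors. Recovered read totals ran from 11126432 to 17032234 in the normal lungs and from 13093843 to 24217633 in the tumors, so that 3 reads, taken as the floor of detection, corresponded to at most 4.85 normalized counts. All 9 listed neuroendocrine markers were higher in the tumors, where their summed level ran from 31678 to 117536 against 130 to 193 in the normal lungs. All 7 alveolar type 1, all 8 alveolar type 2 and club cell, and all 10 endothelial markers were lower, with summed levels in the tumors of 1698 to 3742, 741 to 3721 and 2982 to 7677, against 66278 to 121943, 294627 to 466672 and 71740 to 83191 in normal lung. With the limma test given below, 30.1% of all genes tested were lower and 31.4% higher. The 7677, in tumor 1, included 6522 of Vwf, picked out after its values were seen. Vwf ran from 3221 to 9569 in normal lung. Since tissue pieces were sequenced whole, a lower value can come from fewer cells of a type or from less RNA per cell, and these cannot be told apart. The mean log2 level of 4 Y-linked genes lay between 9.18 and 9.43 in normal lungs 1, 2, 4 and 5 and at 9.14 in tumor 1, against 0 in normal lung 3 and 0 to 1.48 in the other 6 tumors, so the sex of the animals was not balanced between the groups.

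Most integrin and laminin genes were lower in the tumors. With limma on log2(normalized count + 1), adjusted over all 23674 genes tested and called at an adjusted p under 0.05, 29 of the 36 fell, 2 rose (Itgae and Itga10) and 5 were not called (Itga5, Itga11, Itgad, Itgb4 and Itgb8). Over all genes tested, 30.1% were called lower and 31.4% higher. All 7 tumors lay below all 5 normal lungs at 21 of the 36 genes, against 18.4% of all genes tested, and no member had all tumors above all normal lungs, against 20.1% of all genes tested. The median log2 fold change of the 36 was -2.44, with a range from -6.48 to 1.65, beside 0.04 over all genes tested. Of the 25 integrin subunits 18 fell, 2 rose and 5 were not called, with a median of -2.43.

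The alpha and beta chains of laminin-332 showed wide gaps between the groups. Lama3 (ENSMUSG00000024421), its alpha chain, stood at 1406, 1049, 901, 1106 and 1543 normalized counts in the 5 normal lungs and between 19.8 and 60.7 in the 7 tumors, with a median of 40.4. Its log2 fold change was -4.96 (limma SE 0.27, adjusted p = 5.52e-09), from 1201 ± 265 (SD, n = 5) to 38.8 ± 12.8 (SD, n = 7). The lowest normal lung was thus many times above the highest tumor, and the tumors kept close to each other. Lamb3 (ENSMUSG00000026639), its beta chain, had 2174, 1468, 1714, 1457 and 2366 normalized counts in normal lung and 33.6 to 170.4 in the tumors, with a median of 89.6 and a log2 fold change of -4.42 (limma SE 0.36, adjusted p = 2.61e-07). Tumor 7, the highest at most other genes here, led at Lamb3, while tumor 5 led at Lama3. The alveolar type 1, type 2 and club cell markers given above were lower in the same tumors, and their part in the fall of these chains was not tested.

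Itgb6 (ENSMUSG00000026971), the beta subunit that pairs with alpha-v on epithelial cells and activates latent TGF-beta, had the lowest log2 fold change of all 36 genes. It stood at 1510.2, 1462, 1641, 1494 and 1497 normalized counts in the normal lungs. In the tumors it had 24.1, 9.53, 1.98, 29.6, 72.8, 16.8 and 12.2, a log2 fold change of -6.48 (limma SE 0.59, adjusted p = 6.58e-07). Normal lungs were close to each other, tumor 5 was the highest tumor, and tumor 3 was below the floor of 3 reads. The mean fell from 1521 ± 69.4 (SD, n = 5) to 23.9 ± 23.4 (SD, n = 7).

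The sequences just upstream of the transcription starts are shown for 4 members at the ends of the measured range: Itgb6 with the deepest fall, Lamb3 of laminin-332, Itgb1 with the highest level per kb of the integrin subunits, and Itgax, a leukocyte subunit. They are the 250 bases before the start in RefSeq on GRCm38.p6, a build other than the GRCm39 named in the submitters' processing notes, and capitals mark matches to the motifs searched. Itgb6 lies at chr2:60722604-60722853 on the minus strand, Lamb3 at chr1:193301744-193301993, Itgb1 at chr8:128685404-128685653 and Itgax at chr7:128129300-128129549, the last 3 on the plus strand.
Itgb6: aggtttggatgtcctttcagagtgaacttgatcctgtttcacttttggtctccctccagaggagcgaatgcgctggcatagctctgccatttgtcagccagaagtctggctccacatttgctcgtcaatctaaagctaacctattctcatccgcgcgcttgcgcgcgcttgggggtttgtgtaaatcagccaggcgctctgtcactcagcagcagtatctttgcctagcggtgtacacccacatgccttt
Lamb3: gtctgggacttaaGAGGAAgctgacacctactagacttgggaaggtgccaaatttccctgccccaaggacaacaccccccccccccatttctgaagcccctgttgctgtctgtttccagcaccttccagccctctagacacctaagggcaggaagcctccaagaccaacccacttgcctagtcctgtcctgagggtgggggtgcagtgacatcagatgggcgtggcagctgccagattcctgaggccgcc
Itgb1: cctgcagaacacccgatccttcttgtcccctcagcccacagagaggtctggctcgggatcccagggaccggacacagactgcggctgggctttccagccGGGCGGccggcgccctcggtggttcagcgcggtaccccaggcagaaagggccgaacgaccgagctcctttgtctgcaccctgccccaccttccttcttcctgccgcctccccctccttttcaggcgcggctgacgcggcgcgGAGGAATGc
Itgax: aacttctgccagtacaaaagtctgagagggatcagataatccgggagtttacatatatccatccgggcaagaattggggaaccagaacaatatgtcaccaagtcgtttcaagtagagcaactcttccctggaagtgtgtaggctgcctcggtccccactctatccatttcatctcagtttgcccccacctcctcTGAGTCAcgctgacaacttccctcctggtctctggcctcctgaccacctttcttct
RefSeq windows were found for 22 of the 36 members, 25 windows in all. Searched on both strands, the AP-1 letters TGANTCA were in 1 of the 25 windows (Itgax, 56 bases before the start) and in 6.75% of 32851 mouse windows of the same length. The TEAD letters GGAATG were in 3 of 25 (Itga10, Itgb1 and a second start of Lamb3) and in 12.6% of all windows. The GC box GGGCGG was in 8 of 25 and in 32.7% of all windows, and the purine box GAGGAA, read by factors of leukocytes among others, in 12 of 25 and in 23.3%. In Itgb1 the purine box begins 9 bases and the TEAD letters 7 bases before the start, and the matches overlap. The printed Itgb6 window held none of the 4 motifs, and the printed Lamb3 window held only the purine box, 237 bases before the start. A second start of Itgb6, not printed, had a purine box 35 bases before it. A match describes letters in the window and is not evidence of binding.

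The alpha chains other than Lama3 fell by less. Lama4 (ENSMUSG00000019846), the chain of vascular laminins, had 1401, 906, 801, 624 and 1749 normalized counts in normal lung and 64.4 to 583 in the tumors, with a median of 171 and a log2 fold change of -2.64 (limma SE 0.45, adjusted p = 0.000192). Lama2 (ENSMUSG00000019899), the chain of muscle and Schwann cell laminin, had 526.2, 369.9, 431, 385 and 763 in normal lung and 8.92 to 293 in the tumors, with a median of 91.7 and a log2 fold change of -2.61 (limma SE 0.64, adjusted p = 0.00315). At both genes tumor 7 was the highest tumor and tumor 3 the lowest, and no tumor reached the normal range.

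Lama5 (ENSMUSG00000015647) overlapped between the groups. It stood at 2517, 1063, 1449, 870.4 and 3096 normalized counts in normal lung and at 1665, 666, 237, 649, 431, 401 and 762 in the tumors, with a log2 fold change of -1.46 (limma SE 0.44, adjusted p = 0.0105). Tumor 1 lay within the normal range, and the other 6 lay below it. Adjusted for the level of the Y-linked genes, the Lama5 difference was -0.82 and was no longer called (limma adjusted p = 0.212). Lama1 (ENSMUSG00000032796), a chain of embryonic basement membranes, was low everywhere, with 38.7, 12.9, 145, 19.7 and 11.5 normalized counts in normal lung and 1.98 to 10.8 in the tumors, and a log2 fold change of -2.03 (limma SE 0.60, adjusted p = 0.00992). Normal lung 3 stood above the other 4 at this gene, and tumor 3 was below the floor of 3 reads. Adjusted in that way its difference was -3.24.

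Beta and gamma chains shared by many laminins came next. Lamb1 (ENSMUSG00000002900) had 1366, 929, 940.0, 622 and 1577 normalized counts in normal lung and 123 to 574 in the tumors, with a median of 203 and a log2 fold change of -2.23 (limma SE 0.37, adjusted p = 0.000153). Lamb2 (ENSMUSG00000052911) had 2388, 1502, 1912, 1466 and 3232 in normal lung and 266 to 1551 in the tumors, with a median of 545 and a log2 fold change of -1.76 (limma SE 0.37, adjusted p = 0.00104). For Lamb2 tumor 7 alone entered the normal range. Lamc1 (ENSMUSG00000026478), the gamma chain of most laminins, had 3397, 2269.6, 3083, 2203 and 4886 in normal lung and 813 to 2265 in the tumors, with a median of 1313 and a log2 fold change of -1.28 (limma SE 0.26, adjusted p = 0.000718). Again only tumor 7, at 2265, came within the normal range. Lamc3 (ENSMUSG00000026840), a gamma chain of restricted expression, had 406, 261, 302, 175 and 501 in normal lung and 7.93 to 134 in the tumors, with a median of 19.4 and a log2 fold change of -3.76 (limma SE 0.56, adjusted p = 6.23e-05). Its tumor values stayed at or below 24.7 apart from tumor 7.

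**Figure D1:**
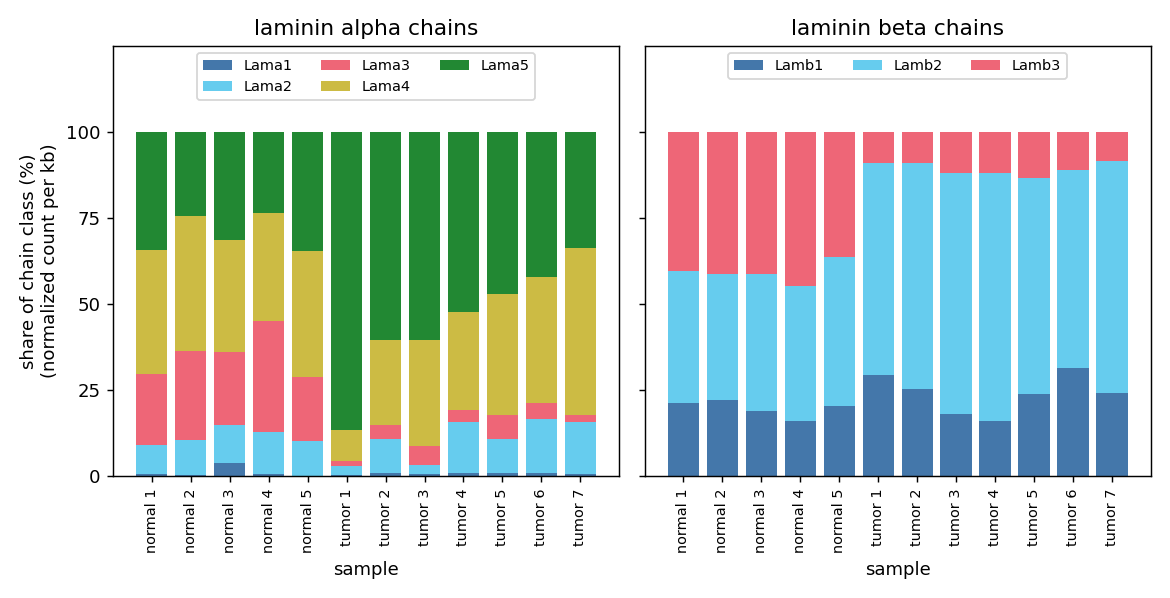
Share of each chain in the summed level of its class (alpha or beta) in each of the 12 samples, in percent, from normalized counts per kb of the longest annotated transcript. Lamb2 makes up 57.7 to 72.1% of the beta chains in the tumors and 36.6 to 43.1% in normal lung.

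Because the chains fell by unequal amounts, the makeup of the alpha and beta chains differed between the groups. Per kb of the longest annotated transcript, Lamb2 made up 39.4% ± 2.38 (SD, n = 5) of the beta chain level in normal lung and 65.3% ± 4.98 (SD, n = 7) in the tumors, and Lamb3 40.9% ± 2.998 and 10.7% ± 1.87. The ranges did not overlap for either chain. Lamb1 took 19.8% ± 2.34 and 24.0% ± 5.53. Among the alpha chains Lama3 went from 23.7% ± 5.44 to 4.06% ± 1.97 and Lama5 from 29.6% ± 5.35 to 54.6% ± 17.0, with the highest Lama5 share, 86.5%, in tumor 1. Tumor 7, at 33.7%, lay within the normal Lama5 range of 23.4% to 34.5%. In that tumor Lama4 held 48.6%. Lama4 held 35.2% ± 3.08 and 30.5% ± 12.1, and Lama2 10.4% ± 1.40 and 10.1% ± 5.62, so neither share differed by more than the spread among tumors. Thus the classes in the tumors were mostly Lama5 with Lama4, and Lamb2 with Lamb1. Lama4 and Lama5 also had the largest mean alpha chain shares in normal lung. The summed level per kb itself was lower in both classes, from 509 ± 198 to 110.3 ± 55.9 for alpha and from 938 ± 278 to 185 ± 111 for beta chains.

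Shares depend on the length used for each gene. With coding length the same chains gained and lost, with Lamb2 going from 34.6% to 62.9% and Lama5 from 28.5% to 53.3%. With the median transcript length, Lamb2 took 88.5% of the beta chains already in normal lung and 95.9% in the tumors, and the share of Lamb1 went from 3.38% to 2.71%, opposite to its direction with the longest transcript.

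Integrin alpha subunits that bind laminin fell with the chains, though tumor 1 stood apart. Itga3 (ENSMUSG00000001507), which with beta-1 forms the main laminin-332 receptor of epithelium, had 5377, 3532, 4044, 4197 and 7443 normalized counts in normal lung. In the tumors it had 1939.7, 853, 629.6, 755, 775, 747 and 836, and its log2 fold change was -2.44 (limma SE 0.26, adjusted p = 3.49e-06). Itga6 (ENSMUSG00000027111), the partner of beta-4 in hemidesmosomes and of beta-1 elsewhere, had 2793, 2584, 3075, 2769 and 2682 in normal lung and 1989.8, 598, 545, 491, 827, 759 and 786 in the tumors, a log2 fold change of -1.85 (limma SE 0.28, adjusted p = 7.14e-05). At both genes all tumors lay below all normal lungs, and tumor 1 was the highest tumor, well above the next. Itga7 (ENSMUSG00000025348), the laminin receptor of muscle, had 489, 257, 696, 212 and 366 in normal lung and 55.5 to 526.4 in the tumors, with a median of 125.1 and a log2 fold change of -1.53 (limma SE 0.48, adjusted p = 0.0136). For Itga7 tumor 7 lay inside the normal range at 526.4. The call was lost with edgeR, at -1.26 (adjusted p = 0.0587), and kept with DESeq2, at -1.28 (adjusted p = 0.0322). Cardiac muscle markers summed to 37116 in tumor 7 and to 322 to 2491 in the other tumors, against 300.5 to 3878 in normal lung. Their part in the Itga7 value was not tested.

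Itgb4 (ENSMUSG00000020758), the hemidesmosome beta subunit that binds laminin-332 with alpha-6, was not called. It had 557, 372, 344, 261 and 521 normalized counts in normal lung and 277, 450.3, 293, 406, 186.9, 255 and 202 in the tumors, so the groups overlapped. Its log2 fold change was -0.49 (limma SE 0.26, adjusted p = 0.125), and with columns scaled to equal totals it was -0.28. Basal cell markers, which mark the airway cells richest in hemidesmosomes, summed to 10.8 to 180.5 in normal lung and 3.97 to 296 in the tumors, and none of the 4 was called. As a share of the beta subunits per kb, Itgb4 made up 1.13% in normal lung and 2.77% in the tumors.

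**Figure D2:**
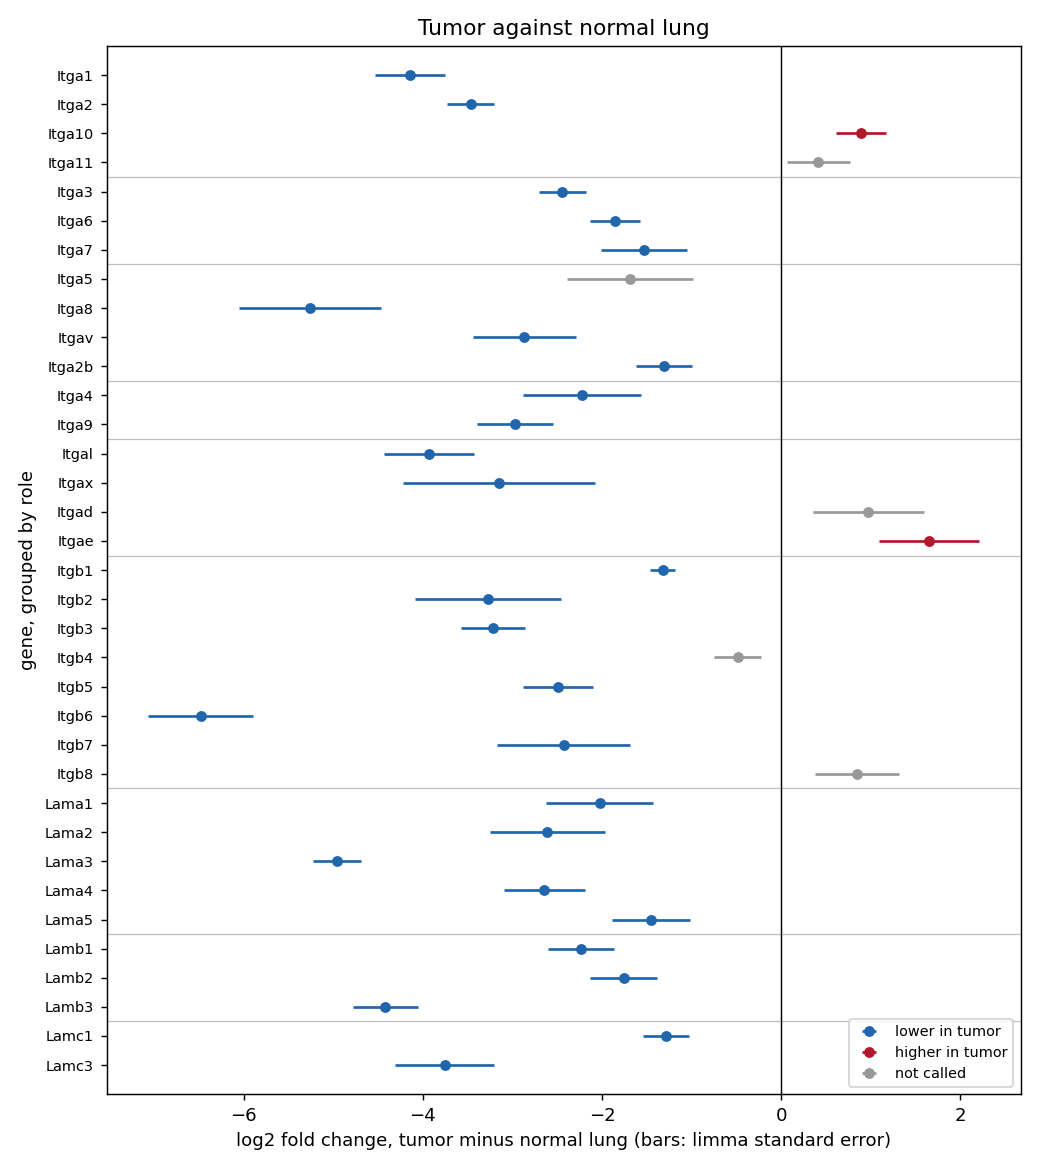
Log2 fold change of the genes described here, tumor minus normal lung, with bars for the limma standard error and genes grouped by role. Points left of 0 are lower in the tumors; values run from -6.48 at Itgb6 to 1.65 at Itgae.

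Collagen-binding alpha subunits moved in different directions. Itga1 (ENSMUSG00000042284), a collagen receptor of fibroblasts, smooth muscle and endothelium, had 5729, 6346, 6086, 6429.8 and 7558 normalized counts in normal lung and 133 to 1064 in the tumors, with a median of 339. Its log2 fold change was -4.14 (limma SE 0.39, adjusted p = 1.02e-06). Itga2 (ENSMUSG00000015533), the collagen receptor of epithelium and platelets, had 709, 638, 724, 512 and 761 in normal lung and 34.5 to 97.9 in the tumors, with a median of 66.4 and a log2 fold change of -3.47 (limma SE 0.26, adjusted p = 1.14e-07). Both were below the normal range in all 7 tumors. Itga11 (ENSMUSG00000032243), a fibroblast collagen receptor, was not called: it had 457, 167, 219.7, 118 and 410.4 in normal lung and 188 to 507 in the tumors, with a median of 312 and a log2 fold change of 0.42 (limma SE 0.35, adjusted p = 0.320). That estimate was 0.16 without normal lung 4 and 0.65 without normal lung 1. Per kb, Itga1 went from 13.4% to 3.53% of the alpha subunits and Itga11 from 1.19% to 7.48%.

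Itga10 (ENSMUSG00000090210), a collagen receptor of cartilage, was 1 of the 2 genes that rose. It had 63.2, 59.1, 77.5, 56.4 and 58.6 normalized counts in normal lung and 97.5, 116.7, 62.5, 96.1, 134, 191 and 166 in the tumors, a log2 fold change of 0.89 (limma SE 0.28, adjusted p = 0.0142). Tumor 3 alone fell within the normal range. With the Y-linked covariate the difference was 0.63 and was not called (limma adjusted p = 0.173). Of its annotated exon bases 33.5% lie in Gm42957 on the same strand, so its counting is uncertain, and Gm42957 itself had 0.323 ± 0.722 (SD, n = 5) and 0.618 ± 1.07 (SD, n = 7) normalized counts, below the floor.

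Itga8 (ENSMUSG00000026768), which with beta-1 binds nephronectin and is expressed in lung fibroblasts, had the lowest log2 fold change of the alpha subunits. It stood at 3232, 3186, 2426, 2876 and 4622 normalized counts in normal lung and at 54.4, 41.7, 11.9, 44.0, 158, 119.9 and 1044 in the tumors, a log2 fold change of -5.26 (limma SE 0.79, adjusted p = 7.08e-05). Tumor 7 was several times above the next tumor and still below every normal lung. Of its exon bases 5.05% lie opposite E030013I19Rik, an antisense gene that was also lower, with a log2 fold change of -4.75 (adjusted p = 0.000563), and the sources used here do not say whether reads were counted by strand. Its ligand Npnt was the lowest by log2 fold change of the 20 listed basement membrane partners, at -5.36 (adjusted p = 3.52e-06), from 15750 ± 4492 (SD, n = 5) to 525 ± 431 (SD, n = 7).

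Itgav (ENSMUSG00000027087), the alpha-v subunit, had 1086, 1036, 1085, 921 and 1135 normalized counts in normal lung and 80.4, 94.1, 33.7, 166, 136, 247 and 842 in the tumors. Its log2 fold change was -2.87 (limma SE 0.57, adjusted p = 0.000727), and tumor 7 came close to the lowest normal lung. Its partner Itgb5 (ENSMUSG00000022817) had 1971, 1907, 1912, 2313 and 2087 in normal lung and 154 to 1193 in the tumors, with a median of 343 and a log2 fold change of -2.49 (limma SE 0.39, adjusted p = 9.75e-05). Itgb8 (ENSMUSG00000025321), the alpha-v partner that also activates TGF-beta, was not called, with 59.3, 48.4, 63.0, 15.5 and 29.9 in normal lung, 34.2, 69.1, 53.5, 81.7, 106, 39.1 and 190.2 in the tumors, and a log2 fold change of 0.84 (limma SE 0.47, adjusted p = 0.131). The Itgb8 estimate was 0.53 without normal lung 4 and 0.19 with the Y-linked covariate. Of the alpha-v partners other than beta-1, then, Itgb3, Itgb5 and Itgb6 fell, and Itgb8 lay at low levels that overlapped between the groups.

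Itga5 (ENSMUSG00000000555), the fibronectin receptor subunit, turned on 1 tumor. It had 1083, 661, 1045, 916 and 1196 normalized counts in normal lung and 177, 267, 47.6, 405, 184, 433 and 2783 in the tumors, a log2 fold change of -1.69 (limma SE 0.71, adjusted p = 0.0515). Tumors 1 to 6 were below all normal lungs and tumor 7 was above all of them. Without tumor 7 the difference was -2.23 (limma adjusted p = 0.000998), while edgeR on all samples gave -0.63 (adjusted p = 0.5005). DESeq2, which replaced the value of tumor 7 as an outlier, gave -1.68 (adjusted p = 0.00108). The ligand Fn1, picked out after its values were seen, was not called, at -0.36 (adjusted p = 0.514).

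Platelet integrin subunits were lower along with platelet markers. Itga2b (ENSMUSG00000034664), the alpha-IIb subunit, had 275, 415, 242, 188 and 155 normalized counts in normal lung and 60.5 to 144.3 in the tumors, with a median of 109 and a log2 fold change of -1.31 (limma SE 0.31, adjusted p = 0.00244). Itgb3 (ENSMUSG00000020689), its partner and also a partner of alpha-v, had 1779.7, 2020.2, 1849, 1234 and 1075 in normal lung and 59.5 to 400.3 in the tumors, with a median of 177 and a log2 fold change of -3.22 (limma SE 0.36, adjusted p = 4.75e-06). At both, all tumors lay below all normal lungs. Of 9 platelet and megakaryocyte markers 8 fell, against 30.1% of all genes tested, and 1, Gp1bb, was called higher at levels near the floor. Their summed level ran from 954 to 5807 in normal lung and from 126 to 323 in the tumors, with Ppbp at 0 in tumor 3. The part of platelet RNA in both integrin values was not tested.

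Leukocyte integrins spread widely among the tumors. Itgal (ENSMUSG00000030830), the alpha-L subunit of LFA-1, had 2235, 1718, 2452, 1155 and 1605 normalized counts in normal lung and 74.7, 90.5, 51.6, 83.5, 93.0, 145.6 and 668 in the tumors, a log2 fold change of -3.93 (limma SE 0.50, adjusted p = 1.62e-05). Its partner Itgb2 (ENSMUSG00000000290) had 2279, 2132, 3774, 1924 and 1854 in normal lung and 102, 226, 29.7, 143, 236, 711 and 2589 in the tumors, a log2 fold change of -3.27 (limma SE 0.81, adjusted p = 0.00340). Itgax (ENSMUSG00000030789), the alpha-X subunit of dendritic cells and alveolar macrophages, had 1354, 689, 1633, 776 and 946 in normal lung and 67.1, 16.7, 10.9, 59.3, 229.7, 750.0 and 1840.0 in the tumors, a log2 fold change of -3.15 (limma SE 1.07, adjusted p = 0.0208). Tumor 7 lay within the normal range at Itgb2 and above it at Itgax, and tumor 6 entered it at Itgax, whereas no tumor reached it at Itgal.

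The calls at Itgax and Itgb2 depended on the test. With edgeR the Itgax difference was -1.30 (adjusted p = 0.285) and with DESeq2 -1.35 (adjusted p = 0.221), so that call was lost in both. For Itgb2 edgeR gave -2.004 (adjusted p = 0.0588). DESeq2, with the value of tumor 7 replaced, gave -2.67 (adjusted p = 0.000247).

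Itgb7 (ENSMUSG00000001281), the lymphocyte subunit that pairs with alpha-4 and alpha-E, had 958, 842, 930.3, 639 and 584 normalized counts in normal lung and 48.1, 105, 56.5, 143, 70.4, 197 and 2149 in the tumors. Its log2 fold change was -2.43 (limma SE 0.74, adjusted p = 0.0119), and tumor 7 was above every normal lung while the other 6 were below. With edgeR it was -0.93 (adjusted p = 0.390), and with DESeq2, tumor 7 again replaced, -2.39 (adjusted p = 1.06e-05). Itga4 (ENSMUSG00000027009), which binds Vcam1 and fibronectin, had 855, 804, 791, 426 and 615 in normal lung and 39.9, 45.3, 79.3, 116.7, 255, 355 and 843 in the tumors, a log2 fold change of -2.22 (limma SE 0.66, adjusted p = 0.00968). With edgeR the Itga4 difference was -1.47 (adjusted p = 0.0762) and with DESeq2 -1.49 (adjusted p = 0.0434). Itga9 (ENSMUSG00000039115), of the same subfamily but not confined to leukocytes, had 1564, 1192, 1131, 1136 and 1945 in normal lung and 66.7 to 507 in the tumors, with a median of 145.6 and a log2 fold change of -2.97 (limma SE 0.42, adjusted p = 4.58e-05). All tumors were below all normal lungs at Itga9.

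Itgae (ENSMUSG00000005947), the alpha-E subunit of tissue-resident T cells and some dendritic cells, which binds E-cadherin, rose. It had 189.6, 91.4, 124, 56.4 and 119.6 normalized counts in normal lung and 191, 206, 127, 200.3, 421, 836 and 1479 in the tumors, a log2 fold change of 1.65 (limma SE 0.56, adjusted p = 0.0206), from 116.3 ± 49.1 (SD, n = 5) to 494 ± 498 (SD, n = 7). Only tumor 3 lay within the normal range, and the values in tumors 5, 6 and 7, which share a title number, were the highest. The call was lost without normal lung 4, at 1.42 (limma adjusted p = 0.0592), and with the Y-linked covariate, at 1.17 (adjusted p = 0.203). Its partner Itgb7 was lower in 6 of the 7 tumors. The E-cadherin gene Cdh1 was lower in the tumors, at -5.03 (limma adjusted p = 0.000188). Tumor 1 stood at 4858 normalized counts and the other 6 tumors at 51.6 to 244, against 6378 to 8042 in normal lung. Haspin, a gene on the opposite strand inside the span of Itgae with 0 shared exon bases, was not analysed here.

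Itgad (ENSMUSG00000070369), the alpha-D subunit of macrophages, was low in all samples and not called. It had 16.8, 19.4, 6.46, 7.05 and 14.9 normalized counts in normal lung and 18.4, 2.38, 42.6, 35.0, 40.4, 28.3 and 49.95 in the tumors, a log2 fold change of 0.97 (limma SE 0.62, adjusted p = 0.189). The estimate moved with the treatment of the tumors. Without tumor 2, which was below the floor of 3 reads, the difference was 1.45 (limma adjusted p = 0.00556), and with same-numbered tumors averaged it was 0.49 (adjusted p = 0.582). DESeq2 on all samples gave 1.25 (adjusted p = 0.0418). Part of its exons is shared with 4 other annotated genes, so its counting is uncertain.

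**Figure D3:**
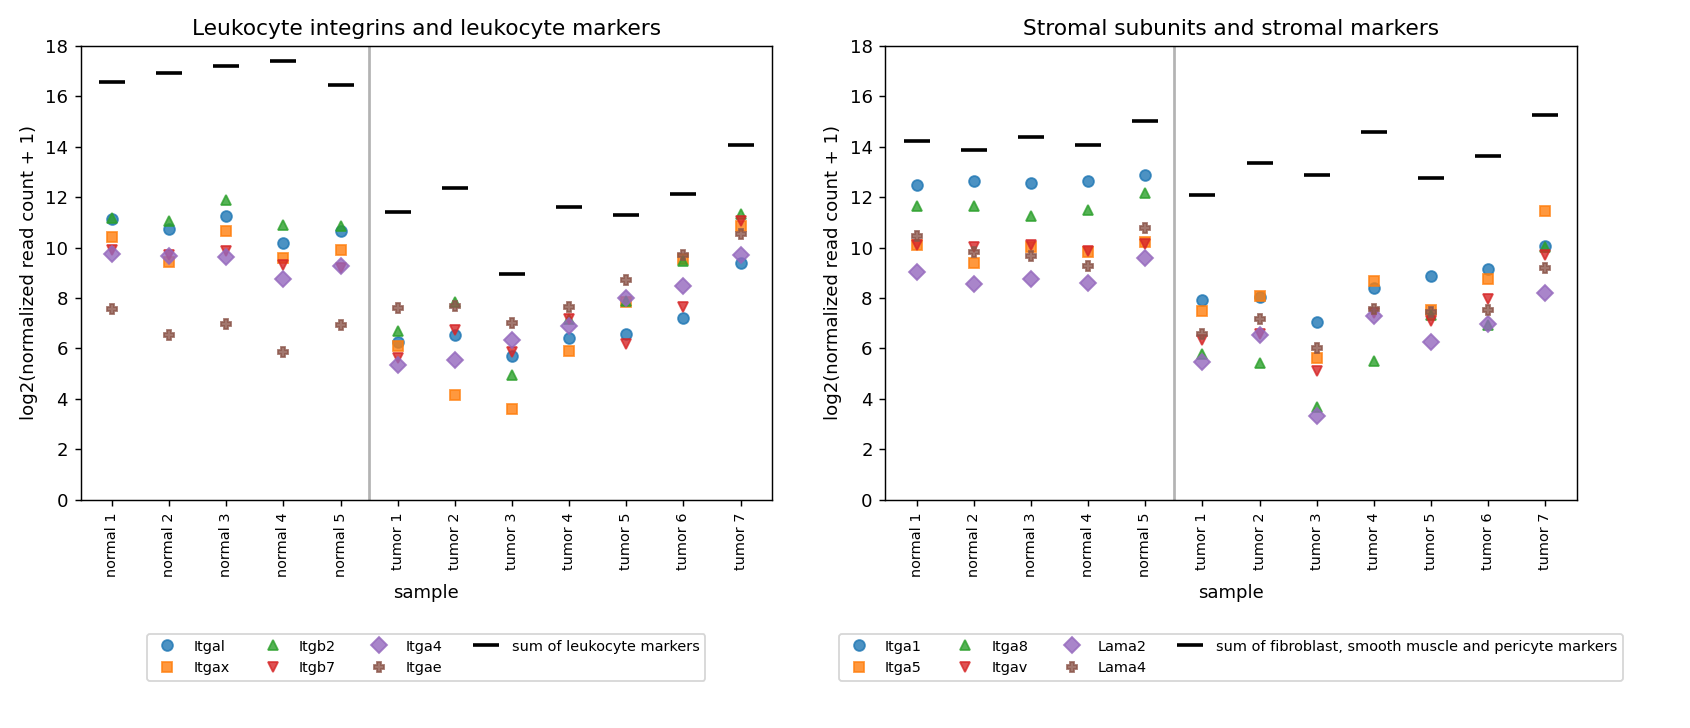
Level by sample, as log2(normalized read count + 1), of 6 leukocyte integrin genes with the summed leukocyte markers, in normal lung mostly Lyz2 (left) and of 6 stromal subunit genes with the summed fibroblast, smooth muscle and pericyte markers (right). The vertical line parts the 5 normal lungs from the 7 tumors. Tumor 7 is the highest tumor at every gene and sum shown. Tumor 3 is the lowest tumor except at Itga4, at Itgb7 and in the summed markers of the right panel.

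Of the 17 leukocyte markers measured 16 fell, against 30.1% of all genes tested. The other 1, the dendritic cell marker Xcr1, was not called, with a log2 fold change of -3.08 (adjusted p = 0.140). Their summed level was 88785 to 173413 normalized counts in normal lung and 2718, 5302, 491, 3125, 2491, 4488 and 16979 in tumors 1 to 7. Lyz2, a gene of macrophages that alveolar type 2 cells also express, made up 84.8% to 90.9% of the sum in normal lung and 6.76% to 67.8% in the tumors. Without Lyz2, a sum formed after seeing the data, the markers ran from 10096 to 18423 in normal lung and stood at 876, 4944, 357, 1414, 1190, 2944 and 11366 in tumors 1 to 7. Tumor 7 then lay within the normal range, and tumor 3 was still the lowest. In tumor 2 most of that sum came from the neutrophil genes S100a8, at 1296, and S100a9, at 2847.

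Marker by marker, tumor 7 lay above the range of the normal lungs at 2 of the 17 genes, within it at 7 and below it at 8. The genes above were Ptprc, the common leukocyte marker, at 3291 against 1988 to 3120, and Xcr1, at 1376 against 77.0 to 213. The T cell marker Cd3e was at 0 in tumors 1, 2 and 3 and at 248 in tumor 7, against 138 to 266 in normal lung. Xcr1 had 0, 2.38, 0, 1.80, 112, 508 and 1376 in tumors 1 to 7, so tumors 5, 6 and 7 were the highest, as they were at Itgae, Itgax and Itga4. The extremes among tumors, tumor 3 lowest and tumor 7 highest, were those of Itgal, Itgb2 and Itgax. The part of leukocyte RNA, dendritic cells included, in these integrin values was not tested.

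Itgb1 (ENSMUSG00000025809), the common beta subunit, had the highest mean level per kb of transcript of all integrin subunits in both groups. It had 12305, 12678, 13279, 12949.8 and 14838 normalized counts in normal lung and 5122, 5345, 5065, 4907, 4831, 4429 and 7759.6 in the tumors, a log2 fold change of -1.32 (limma SE 0.14, adjusted p = 2.71e-06). All tumors were below all normal lungs, and tumors 1 to 6 were close to each other. Per kb it made up 59.3% ± 4.20 (SD, n = 5) of the beta subunits in normal lung and 76.5% ± 14.2 (SD, n = 7) in the tumors, where it ranged from 48.5% to 90.3%. With the median transcript length its mean share was 45.5% in normal lung and 67.4% in the tumors. The Itgb6 share went from 5.42% ± 0.151 to 0.299% ± 0.329.

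Among the alpha subunits, per kb, the mean share of Itga3 was 22.5% in normal lung and 20.8% in the tumors, and that of Itga6 14.8% and 20.7%. Itga8 went from 12.7% to 2.07% and Itgae from 0.670% to 9.996%. The summed level per kb of the alpha subunits was 4436 ± 648 (SD, n = 5) in normal lung and 1142 ± 781 (SD, n = 7) in the tumors, and that of the beta subunits 5847 ± 345 and 1974 ± 985.

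Tumors varied more than normal lungs at these genes. The median SD of the log2 level was 0.92 among tumors and 0.42 among normal lungs for the 36 genes, beside 0.63 and 0.35 over all genes tested. Tumor 7 was the highest tumor at 24 of the 36 genes (66.7%), against 24.5% of all genes tested, and the lowest at 0. Tumor 3 was the lowest at 25 (69.4%), against 16.7% of all genes tested, and the highest at 0. These were tumors of different title numbers, and tumor 4, which shares its number with tumor 3, was the lowest at 1 gene. Without tumor 7, 28 of the 36 genes had all tumors below all normal lungs, against 23.5% of all genes. Fibroblast, smooth muscle and pericyte markers summed to 15069 to 33062 in normal lung and to 4363, 10425, 7513, 24559, 7028, 12663 and 39477 in tumors 1 to 7. Of these 12 markers 5 were called lower, against 30.1% of all genes tested, and 7 were not called. Tumor 7 also had the highest sum of leukocyte and cardiac markers and the lowest sum of neuroendocrine markers, 31678. The part of other cells in the tumor 7 values was not tested.

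Inside the cell, integrins act through talin, kindlins and focal adhesion proteins. Of 36 genes of this adhesion machinery 26 fell, against 30.1% of all genes tested, 1 rose, against 31.4%, and 9 were not called. The median log2 fold change of the 36 was -1.44. The largest falls were those of Fermt1, the epithelial kindlin, at -4.30 (adjusted p = 5.00e-07), Lims2, a partner of integrin-linked kinase, at -3.83 (adjusted p = 5.96e-05), and Tns1, a tensin that binds beta tails, at -3.52 (adjusted p = 1.32e-05). Arhgef7, a focal adhesion protein, rose by 0.39 (adjusted p = 0.0273). The focal adhesion kinase gene Ptk2, picked out after its values were seen, was not called, at -0.23 (adjusted p = 0.253).

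Of 20 basement membrane partners of laminin 13 fell, against 30.1% of all genes tested, 1 rose, against 31.4%, and 6 were not called. The median of the 20 was -1.50. After Npnt the lowest were Col4a3 and Col4a5, collagen IV chains, at -4.97 each (adjusted p = 9.73e-08 and 7.85e-05). Fras1, a basement membrane protein of epithelium, went the other way. It had 121, 93.5, 141, 56.4 and 226 normalized counts in normal lung and 1234 to 2758 in the tumors, with a median of 1719 and a log2 fold change of 3.995 (limma SE 0.32, adjusted p = 1.91e-07). Every tumor was several times above every normal lung. The nidogens Nid1 and Nid2, which link laminin to collagen IV and were picked out after their values were seen, were not called, at -0.29 and 0.03.

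Of 19 non-integrin laminin receptors and hemidesmosome genes 5 rose, 6 fell and 8 were not called, with a median of 0.22. These counts lie near the shares of all genes tested, 31.4% higher and 30.1% lower. Sgcb, a sarcoglycan, rose by 1.16 on the log2 scale (adjusted p = 7.99e-06). Rpsa, a ribosomal protein also described as a laminin receptor, had 0.95 (adjusted p = 0.00472), but near-identical copies in the genome make its counting uncertain. Bcam, a receptor for the laminin alpha-5 chain, had a log2 fold change of -2.96 (adjusted p = 2.58e-05), Col17a1, the hemidesmosome collagen, -2.92 (adjusted p = 0.000311), and Utrn, utrophin, -2.22 (adjusted p = 3.65e-06).

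Other integrin ligands included 19 measured genes, of which 11 fell, against 30.1% of all genes tested, and 8 were not called. The median of the 19 was -1.75. Icam2 and Icam1, ligands of LFA-1, were the lowest, at -6.01 (adjusted p = 1.18e-08) and -5.88 (adjusted p = 4.01e-05). Of 9 genes of TGF-beta activation by alpha-v integrins 7 fell, against 30.1% of all genes tested. The other 2, Tgfb2 and Tgfb3, were not called, and the median of the 9 was -1.45. Nrros and Lrrc32, which tether latent TGF-beta to cells, had log2 fold changes of -3.11 (adjusted p = 0.00150) and -2.76 (adjusted p = 0.000163), and Tgfb1 had -2.15 (adjusted p = 0.00112).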

How the data were processed

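RNA was poly-A selected and sequenced in 12 mouse samples, per the labels' protocols. The table holds, per gene, a normalized read count (a size-factor scaled signal) deposited by the authors. The submitters' processing notes name featureCounts, DESeq2 and the build GRCm39; aligner, annotation and use of strand are not given in the sources used here. In each column 100% of values were whole multiples of 1 step, within 0.001 of a whole read, which gave back the reads; in tumor 3 the step is so close to 1 that recovery is less certain, and its reads were used like the others.

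Fold changes and adjusted p-values come from limma 3.58.1 (lmFit, eBayes with trend) in R 4.3.3, on log2(value + 1) for genes with a mean of at least 1, with Benjamini-Hochberg adjustment over all genes tested. The 1 added before the log makes the fold change of a gene with few reads smaller. The main limma fold change is a difference between mean log2 levels, and at Itgb6 it was larger in size than with edgeR (-6.48 against -6.01). edgeR 4.0.16 (quasi-likelihood, TMM or upper quartile factors) and DESeq2 1.42.0 were run on the recovered reads of all 12 samples as alternatives; where edgeR is named alone, TMM was used. Other alternatives changed the pseudocount, the filter or the scaling, averaged or correlated tumors that share a title number (correlation 0.304), left out the tumors titled trachea, added the mean log2 level of 4 Y-linked genes, or left out each sample. The fit was also run on simulated counts with the same spread setting for all genes and both groups. In the data the tumors varied more than the normal lungs, so that run does not check the calls made here. Members are named one by one; from other lists, at most 3 called genes in each direction. Members, lists, motifs and tests were chosen with earlier results of these data known. Lengths and exon overlaps came from GENCODE M21 and promoters from RefSeq. Protein sequences, 1 member of the set and some genes of the other lists are not reported here; the counts include them.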

Additional observations from a re-analysis of the deposited data

Results flagged for a closer look

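In each group of each gene the highest and the lowest sample were compared with the nearest other sample of that group. Of 72 groups examined, 9 held a sample that stood apart by Dixon's criterion, and chance alone gives about 1 in 20 groups, which is 3.6 here. Tumor 7 stood above the other tumors at Itgal, with 668 normalized counts against 145.6 in the next tumor, at Itgb1, with 7759.6 against 5345, at Itgb7, with 2149 against 197, and at Lamc3, with 134 against 24.7. Tumor 1 stood above the others at Itga3, with 1939.7 against 853, and at Itga6, with 1989.8 against 827. Tumor 2 stood below the others at Itgad, with 2.38 against 18.4. Normal lung 3 stood above the other normal lungs at Itgb2, with 3774 against 2279, and at Itgb6, with 1641 against 1510.2.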

How the results depend on the processing

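Over 25 alternatives none of the 36 genes changed sign, and 26 kept their call in all of them. The 10 that did not were Itga10, Itga4, Itga5, Itga7, Itgad, Itgae, Itgax, Itgb2, Itgb7 and Lama5. The number of members called lower, 29, was 24 with edgeR and TMM factors, 26 with upper quartile factors and 28 to 30 under the other alternatives. The number called higher, 2, was 0 with the Y-linked covariate (Itga10 and Itgae both lost), 3 with DESeq2, and 1 to 3 when each sample was left out in turn, 1 without normal lung 4 and 3 without tumor 2. With the upper quartile factors of edgeR the calls of Itga4 (-1.50, adjusted p = 0.0665), Itgax (-1.34, adjusted p = 0.264) and Itgb7 (-0.999, adjusted p = 0.346) were lost. Itga5 was called lower without the trachea-titled tumors (limma -2.19, adjusted p = 0.00219) and with same-numbered tumors averaged (-1.53, adjusted p = 0.0167). The cause was not tested. Scaling to equal totals moved the median log2 fold change of all genes from 0.04 to 0.24. The depth limits Itgb6, Lama1 and Itgad, where single tumors had fewer than 3 reads. No paired analysis was possible because the groups share no number in their titles.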
